A study of Vitis vinifera with 2 samples.

Results

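CBL proteins (calcineurin B-like proteins) and CIPK proteins (CBL-interacting protein kinases) were followed in wounded grape tissue given a yeast. They were taken as every gene whose name in the transcript tables is CBL or CIPK followed by a number, with FPKM summed over the models of a name. FPKM gives fragments per kilobase of a model, scaled to its library's size. The rule gave 25 of 30485 genes, 8 CBL sensors and 17 CIPK kinases, with 72 transcript models. The data are 1 library of wound tissue of Vitis vinifera given the yeast Yarrowia lipolytica in 10 µL of suspension, and 1 library of wound tissue given sterile water in its place. Tissue of both groups was held at 20 °C and sampled on day 3. Because the yeast is named under strain for the control too, the groups follow the titles and the treatment protocol. The cultivar, the berry stage and the number of berries or wounds in a library are not given in the labels. With n = 1 in each group there is no replicate check, no test was made and no p-value is given.

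CBL proteins bind calcium when its level in the cytosol rises, and many are anchored to the plasma membrane or the vacuole membrane. A CBL with calcium binds a CIPK at a short motif in the kinase's regulatory tail, which frees the kinase domain and brings it to that membrane. Known targets of such pairs in plants include potassium channels, sodium exchangers, nitrate transporters and NADPH oxidases, and in grape berries the potassium channel K1.2 is known as a target. CIPK genes of flowering plants fall into an intron-rich and an intron-poor clade. Grape members have their own numbers, so no role of a same-numbered Arabidopsis gene is carried over here.

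The yeast-treated library held 20540965 fragment equivalents (300 aligned bases each) and the water control library 19010746. Genes reaching an FPKM of 1 in either library were taken as measured, which 16040 genes were. Ratios are log2((treated + 1)/(control + 1)) of FPKM, and a gene was called higher or lower at 2-fold on that scale, where the pseudocount of 1 shrinks the ratios of low genes. Folds beside FPKM values are plain ratios of treated over control, with 95% counting intervals in brackets that say nothing of variation between wounds. Over all measured genes the median log2 ratio was -0.28, with 73.5% of genes below 0, so for several members the ratio is also given relative to that median. In bulk tissue, fewer cells of a type and less RNA per cell cannot be told apart, and no marker of a cell type was checked here.

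Of the 25 members 21 were measured, and 4 of these were at least 2-fold higher in the yeast-treated library: the sensor CBL01 and the kinases CIPK02, CIPK11 and CIPK19. That is 19.0% of the measured members, against 6.26% of all measured genes. Without an opposite-strand model that carries the name CBL01 the count was 3, against 6.25% of all measured genes. Among genes with an FPKM of at least 10 it was 2, against 8.33% of all such genes. With a pseudocount of 5 it was 1, CIPK02, against 3.88% of all measured genes. No member was at least 2-fold lower, against 3.66% of all measured genes. With a pseudocount of 0.1 the lower count was 1, CBL08, against 9.6% of all measured genes. The median log2 ratio of the 21 was -0.04, against the -0.28 of all measured genes. The other 17 were within 2-fold.

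**Figure D1:**
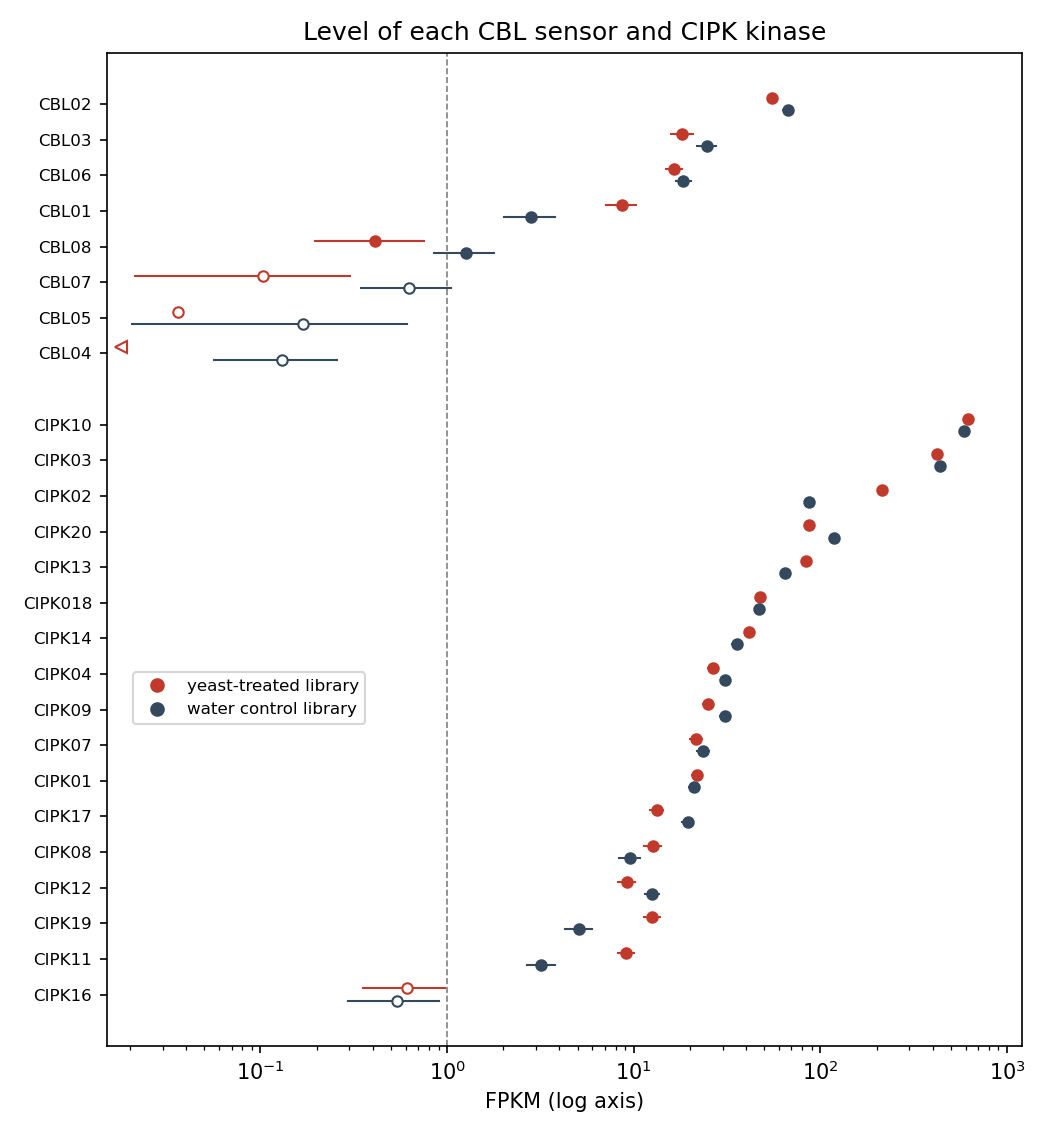
FPKM (log axis) of the 25 members in the yeast-treated library (red) and the water control library (dark blue), with 95% counting intervals as lines; the dashed line is an FPKM of 1, hollow points are members under 1 in both libraries, and the triangle at the left edge marks CBL04, listed at 0 in the treated library. CIPK10 and CIPK03 stand at the right in both libraries, and CBL01, CIPK02, CIPK11 and CIPK19 have red points well right of the blue ones.

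The 8 CBL sensors together held far less FPKM than the 17 kinases. Their FPKM summed to 98.9 in the yeast-treated library and 115 in the water control library, while the kinases summed to 1665 and 1536. Medians over the measured members lay closer. They were 16.5 FPKM in the treated and 18.4 FPKM in the control library for sensors, and 25.7 and 30.8 FPKM for kinases. The limit left out 3 of 8 sensors and 1 of 17 kinases. Over all members the medians were 4.51 and 2.03 FPKM for sensors, and 25.0 and 30.7 FPKM for kinases. The most abundant sensor was CBL02 on chromosome 19, at 55.1 FPKM in the treated and 66.8 FPKM in the control library, or 0.825 times the control (0.764 to 0.889). Its log2 ratio of -0.27 lay 0.00 from the median of all genes. The rank of CBL02 rests on the summed model FPKM. In the deposited gene values, used only as an alternative score, CBL02 stood at 24.7 and CBL01 at 57.2 in the treated library. In the control library these values were 30.0 for CBL02 and 22.5 for CBL01.

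CBL03 stood at 18.1 FPKM in the treated and 24.6 FPKM in the control library, or 0.736 times the control (0.612 to 0.884). It lies on a sequence not placed on a chromosome, in a single model of 557 bases and 7 exons. CBL06 on chromosome 4 stood at 16.5 FPKM in the treated and 18.4 FPKM in the control library, or 0.894 times the control (0.782 to 1.02). The counting intervals of CBL03 and CBL06 overlapped in the treated library and not in the control library, and CBL02 stood above both in each. Relative to the median of all genes, the log2 ratio was -0.15 for CBL03 and 0.12 for CBL06.

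CBL01, a calcium sensor on chromosome 2, was the one called member of its family. Its models summed to 8.60 FPKM in the treated and 2.80 FPKM in the control library, 3.07-fold higher (2.13 to 4.50), with a log2 ratio of 1.34. That sum mixes different kinds of model. Its interval uses the fragments pooled over all models. It is too narrow here, because a model on few fragments held much of the FPKM. The 4 annotated models on the forward strand (5592165 to 5598385) held 3.35 FPKM in the treated and 1.41 FPKM in the control library, 2.37-fold higher (1.59 to 3.59). Their log2 ratio was 0.85, within 2-fold on the scale used for calls.

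The rest of the CBL01 sum came from a single assembled model of 203 bases on the opposite strand, from 5579374 to 5598383, which carries the same gene name. It held 5.26 FPKM in the treated and 1.39 FPKM in the control library, on 22.5 and 5.55 fragment equivalents, 3.79-fold higher (1.50 to 11.4). The call of CBL01 thus rested on this model, and the sources used here do not say whether the counting used strand. Within the annotated models the split was also uneven: 1 model of 1264 bases held 1.59 FPKM in the treated library and was listed at 0 in the control library. The main model, of 1291 bases, held 1.76 FPKM in the treated and 1.41 FPKM in the control library, 1.24 times the control (0.791 to 1.97).

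The CBL01 locus is joined to the gene before it on the same strand, LOC100243294. An assembled read-through model named for that gene runs from 5573387 to 5598296, into the span of CBL01, and held 8.45 FPKM in the treated and 3.15 FPKM in the control library. The other models of LOC100243294, which end at 5579578, held 58.8 FPKM in the treated and 23.2 FPKM in the control library, 2.54-fold higher (2.30 to 2.80). Annotated CBL01 and the read-through model together stood at 11.8 FPKM in the treated and 4.56 FPKM in the control library, 2.59-fold higher (2.09 to 3.23). How fragments were divided between the 2 genes is uncertain, and each of these groups of models was over 2-fold higher by the plain ratio.

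**Figure D2:**
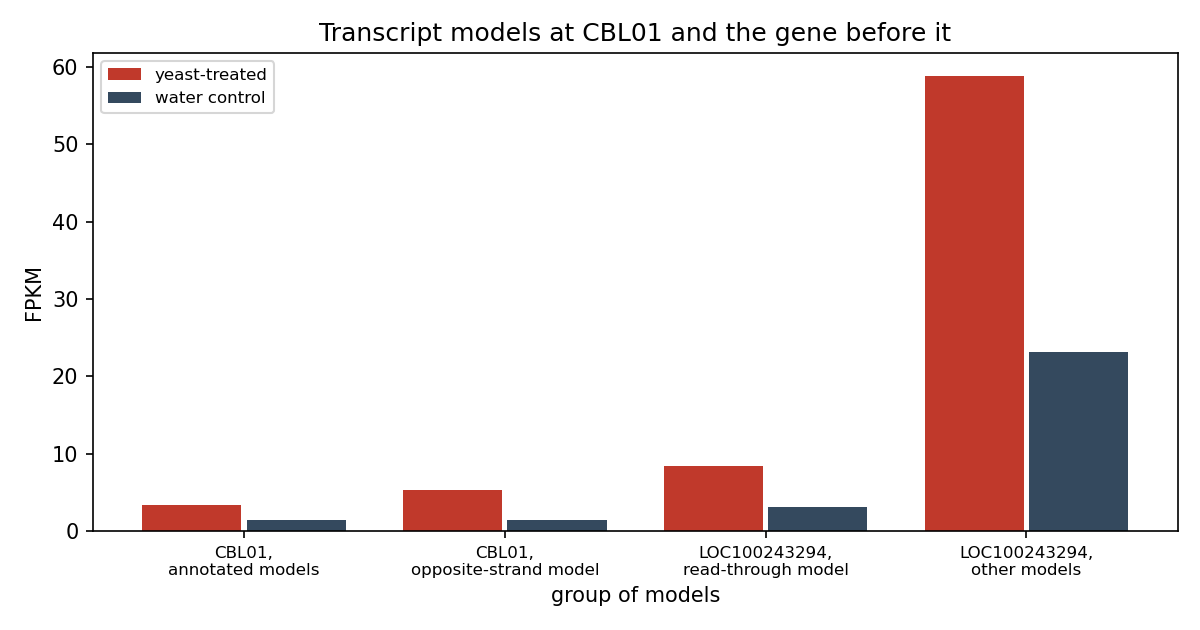
FPKM of 4 groups of transcript models at CBL01 and at LOC100243294, the gene before it, in the yeast-treated library (red bars, left) and the water control library (dark blue bars, right), 1 library each. Every group is higher in the treated library, from 3.35 against 1.41 FPKM for the annotated CBL01 models to 58.8 against 23.2 FPKM for the models of the neighbour alone.

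The remaining sensors were at or under the measuring limit. CBL08 stood at 0.410 FPKM in the treated and 1.26 FPKM in the control library, 0.327 times the control (0.142 to 0.686), on 9.76 and 29.8 fragment equivalents. It was measured through the control library alone, and lay within 2-fold with the pseudocount of 1, at a log2 ratio of -0.68. CBL07 stood at 0.103 FPKM in the treated and 0.629 FPKM in the control library, under the limit of 1 in both. The plain ratio of CBL07 was 0.164 (0.0302 to 0.588), on 2.55 and 14.5 fragment equivalents.

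CBL05 stood at 0.0362 FPKM in the treated and 0.169 FPKM in the control library, on 0.477 and 2.07 fragment equivalents, too few to detect a difference at this depth. CBL04 was listed at 0 in the treated library and stood at 0.130 FPKM in the control library, on 8.14 fragment equivalents over 10 models. A value of 0 allows up to 3 fragments by counting error, fewer than CBL04 had in the control library. These 3 sensors, CBL04, CBL05 and CBL07, were not expressed by the limit of 1 FPKM.

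Among the kinases, most of the FPKM lay in CIPK10 and CIPK03, intron-poor genes of 1 exon each. They held 62.4% of the summed CIPK FPKM in the treated and 66.8% in the control library. CIPK10 on chromosome 6 stood at 615 FPKM in the treated and 590.4 FPKM in the control library, 1.04 times the control (1.02 to 1.06). This placed it at percentile 99.1 of measured genes in both libraries. CIPK03, on a sequence not placed on a chromosome, stood at 423 FPKM in the treated and 435 FPKM in the control library, 0.972 times the control (0.947 to 0.998). The share and order rest on the summed model FPKM, and the deposited gene values gave another order. There CIPK10 stood at 130 in the treated and 125 in the control library, and CIPK03 at 172 and 177. CIPK13 stood above CIPK10 at 179 in the treated and 137 in the control library, and CIPK018 at 139 and 146.

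CIPK02, a kinase of 1 exon on chromosome 9 (13197364 to 13198560), had the largest log2 ratio among the kinases, 1.29, though CIPK11 had the larger plain ratio. It stood at 214 FPKM in the treated and 87.2 FPKM in the control library, 2.46-fold higher (2.33 to 2.59). The value rests on 5417 and 2055 fragment equivalents in a single model, and no other gene model overlaps it. CIPK02 was the third most abundant member in the treated library and the fourth among the kinases in the control library, where CIPK20 stood above it.

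CIPK11, another intron-poor kinase, lies on chromosome 6 (8605140 to 8608027) and has models of 2 exons. It stood at 9.09 FPKM in the treated and 3.18 FPKM in the control library, 2.85-fold higher (2.35 to 3.49), with a log2 ratio of 1.27. In the control library it was the lowest of the measured kinases, and in the treated library its counting interval overlapped that of CIPK12, at 9.15 FPKM. The models of 2290 and 2201 bases carried the difference, and that of 2290 bases held 7.72 FPKM in the treated and 1.94 FPKM in the control library, 3.98-fold higher (3.15 to 5.09). The model of 2201 bases held 1.21 FPKM in the treated and 0.229 FPKM in the control library. In the other direction, the models of 1314 and 2520 bases were listed at 0 in the treated library and held 0.613 and 0.260 FPKM in the control library. The longest model, of 2543 bases, held 0.163 FPKM in the treated and 0.144 FPKM in the control library.

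CIPK19, on chromosome 5 (2672314 to 2676586), was the one intron-rich kinase past 2-fold. It stood at 12.5 FPKM in the treated and 5.07 FPKM in the control library, 2.47-fold higher (2.04 to 3.01), with a log2 ratio of 1.16. Nearly all of it was in the model of 12 exons and 1486 bases, at 12.5 FPKM in the treated and 5.07 FPKM in the control library. Among all measured genes the ratios of CBL01, CIPK02, CIPK11 and CIPK19 lay at percentiles 95.9, 95.6, 95.5 and 94.9. Relative to the median of all genes, their log2 ratios were 1.61, 1.56, 1.55 and 1.43.

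**Figure D3:**
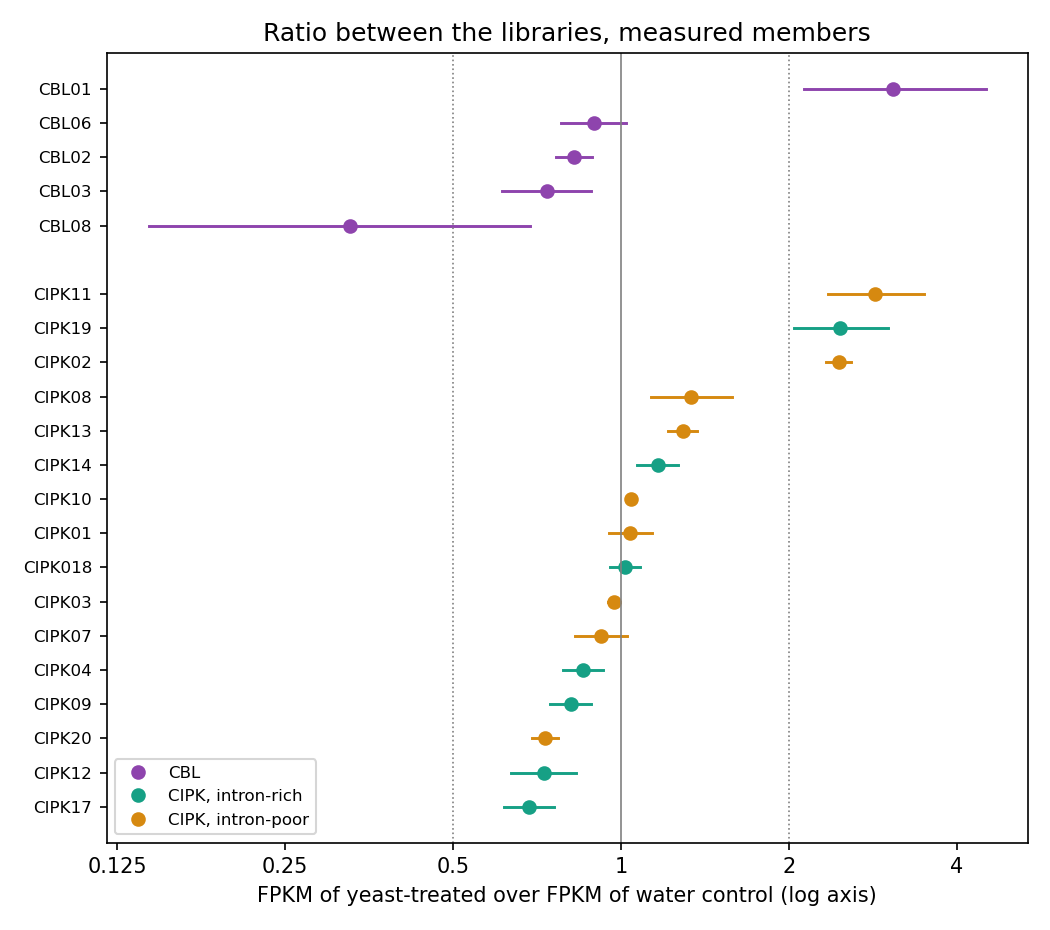
Plain ratio of FPKM, yeast-treated over water control (log axis), for the 21 measured members with 95% counting intervals; dotted lines mark 0.5 and 2, and colours mark CBL sensors, intron-rich and intron-poor kinases. CBL01, CIPK11, CIPK19 and CIPK02 lie right of 2, and CBL08, on few fragments, lies left of 0.5. The drawn intervals of those 4 lie above 2, but that of CBL01 pools fragments over unlike models and is too narrow.

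Of the remaining intron-poor kinases, 3 had counting intervals above 1 while staying within 2-fold, CIPK10 among them. CIPK13 on chromosome 13 stood at 83.4 FPKM in the treated and 64.7 FPKM in the control library, 1.29 times the control (1.22 to 1.37). CIPK08 on chromosome 8 stood at 12.7 FPKM in the treated and 9.50 FPKM in the control library, 1.34 times the control (1.13 to 1.58). Relative to the median of all genes, their log2 ratios were 0.64 and 0.66.

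CIPK20 on chromosome 5, a kinase of 1 exon, stood at 86.7 FPKM in the treated and 118.5 FPKM in the control library, 0.731 times the control (0.692 to 0.773). Its level in the treated library thus matched that of CIPK13 within counting error, while in the control library CIPK20 stood above it. CIPK01 stood at 21.9 FPKM in the treated and 21.1 FPKM in the control library, and CIPK07 at 21.7 FPKM in the treated and 23.5 FPKM in the control library. The counting intervals of these ratios spanned 1. CIPK16 was not expressed by the limit of 1 FPKM, at 0.609 FPKM in the treated and 0.540 FPKM in the control library, on 17.4 and 14.4 fragment equivalents.

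The intron-rich kinases other than CIPK19 ranged more narrowly. CIPK018, as the files write it, stood at 47.8 FPKM in the treated and 47.0 FPKM in the control library, and was the most abundant of them. CIPK14 stood at 41.7 FPKM in the treated and 35.8 FPKM in the control library, 1.16 times the control (1.07 to 1.27). Its span shares 226 bases with LOC100246237 on the opposite strand, which held 7.16 FPKM in the treated and 8.19 FPKM in the control library.

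CIPK04 and CIPK09 stood at neighbouring levels in both libraries, and both were lower in the treated library as deposited. CIPK04 stood at 26.4 FPKM in the treated and 31.0 FPKM in the control library, 0.854 times the control (0.787 to 0.927). CIPK09 stood at 25.0 FPKM in the treated and 30.7 FPKM in the control library, 0.813 times the control (0.747 to 0.885). Relative to the median of all genes these were log2 ratios of 0.06 and -0.01, and after rescaling that median to 0 both ratios lay above 0, at 0.09 and 0.02.

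CIPK17 and CIPK12 had the lowest plain ratios of the measured kinases chosen by name. CIPK17 on chromosome 18 stood at 13.3 FPKM in the treated and 19.5 FPKM in the control library, 0.685 times the control (0.616 to 0.760). CIPK12 on chromosome 15 stood at 9.15 FPKM in the treated and 12.6 FPKM in the control library, 0.728 times the control (0.636 to 0.832). Relative to the median of all genes, their log2 ratios were -0.24 and -0.14.

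As listed, transcript models of a gene did not always share its ratio. In CIPK17 a model of 1656 bases and 11 exons held 0.665 FPKM in the treated and 3.29 FPKM in the control library, 0.202 times the control (0.123 to 0.319). The main model of CIPK17, of 14 exons, held 12.1 FPKM in the treated and 15.5 FPKM in the control library, 0.782 times the control (0.700 to 0.874). In CIPK018, an assembled model of 11 exons held 21.3 FPKM in the treated and 16.9 FPKM in the control library, 1.26 times the control (1.10 to 1.45). A model of 15 exons and 1956 bases of the same gene held 3.38 FPKM in the treated and 5.72 FPKM in the control library, 0.591 times the control (0.475 to 0.734). The sources used here do not say how the authors' pipeline divided fragments among the models of a gene. The intervals of single models leave out any error of that division, which was not tested.

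**Figure D4:**
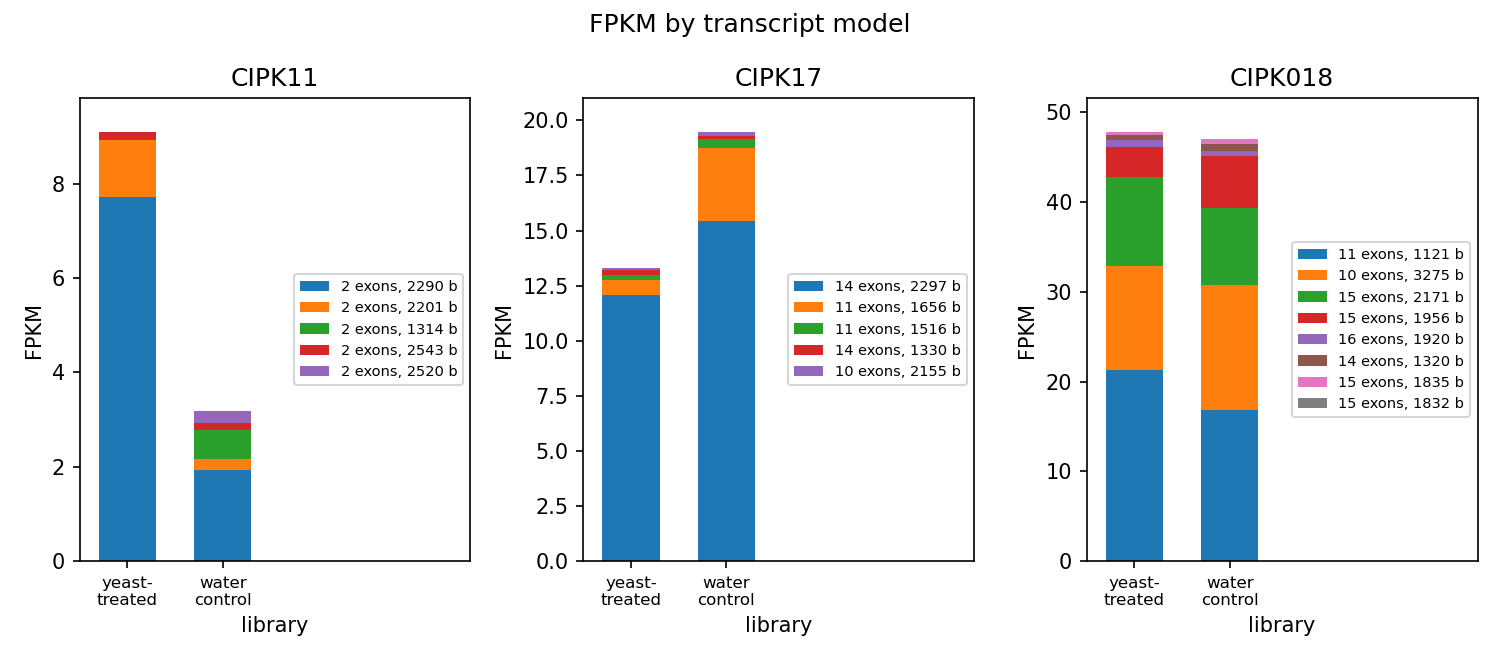
FPKM of each transcript model, stacked, of CIPK11, CIPK17 and CIPK018 in the yeast-treated library (left bar) and the water control library (right bar); colours are models, named by exon number and length in bases (b). The CIPK11 bar is taller in the treated library through its model of 2290 bases, and in CIPK17 the model of 1656 bases is thinner in the treated library.

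By exon number the kinases formed separate classes, with medians over the models of a gene from 11 to 15 in 7 intron-rich kinases and from 1 to 2 in 10 intron-poor kinases. All 7 intron-rich kinases were measured, and 9 of 10 intron-poor ones. The intron-rich kinases ranged from 9.15 to 47.8 FPKM in the treated and from 5.07 to 47.0 FPKM in the control library. The measured intron-poor kinases ranged far wider, from 9.09 to 615 FPKM in the treated and from 3.18 to 590.4 FPKM in the control library. The summed FPKM of the intron-rich class was 176 in the treated and 182 in the control library, and that of the intron-poor class 1489 in the treated and 1354 in the control library. Much of the intron-poor sum lay in CIPK10 and CIPK03. In the deposited gene values the highest kinases of the classes lay closer. They were CIPK13 at 179 and CIPK018 at 139 in the treated library, and CIPK03 at 177 and CIPK018 at 146 in the control library.

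The median log2 ratio was -0.22 in the intron-rich and 0.06 in the measured intron-poor kinases, with ranges of -0.51 to 1.16 and -0.45 to 1.29 that overlapped almost fully. Of the intron-rich kinases 1 of 7 was at least 2-fold higher, against 3.81% of all measured genes with a median of 5 or more exons. Of the measured intron-poor kinases 2 of 9 were, against 8.62% of all measured genes with fewer exons. None in either class was lower, against 2.27% and 5% of all measured genes in the same classes. Over all measured genes the median was -0.29 in the intron-rich and -0.26 in the intron-poor class. Kinases of a family share sequence and are not replicates, so the difference of medians between the classes is a description.

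**Figure D5:**
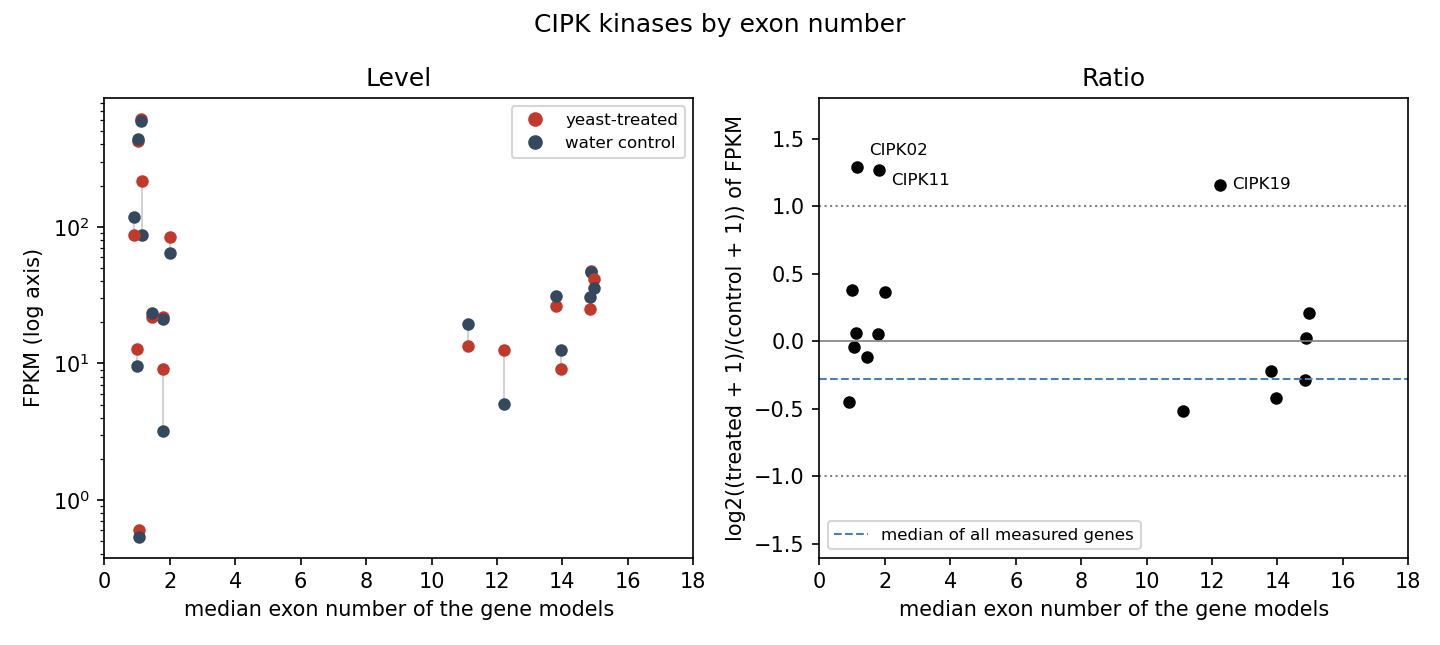
CIPK kinases by the median exon number of their models, with points shifted slightly sideways: left, FPKM (log axis) in the yeast-treated (red) and water control (dark blue) libraries; right, the log2 ratio of the 16 measured kinases, with dotted lines at 2-fold and a dashed line at the median of all measured genes, -0.28. The intron-poor kinases spread over a wider range of levels than the intron-rich ones, and the 3 labelled kinases past 2-fold fall in both classes.

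A further kinase of the family, LOC100259329, carries the synonym CIPK15 in the RefSeq gene table and falls outside the rule because the files give it no CIPK name. It was looked up after the other values were seen. It stood at 202 FPKM in the treated and 327 FPKM in the control library, 0.618 times the control (0.601 to 0.636), with a log2 ratio of -0.69. At 1 exon it is intron-poor. It is left out of all CIPK sums, shares and class values given above. Including it would raise the control sums more than the treated sums, and lower the share held by CIPK10 and CIPK03. Its level would place it between CIPK02 and CIPK20 in the treated library and between CIPK03 and CIPK20 in the control library. Its ratio was lower than that of any measured CIPK chosen by name.

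Of genes known as kinds of CBL-CIPK target or partner, few carry a symbol in the files. The list of calcium sensors, calcium channels and pumps, ion and sugar transporters and abscisic acid partners matched 9 genes, of which 6 were measured. None was at least 2-fold higher or lower, all 6 had a log2 ratio below 0 as deposited (2 after rescaling the median of all genes to 0), and their median was -0.12, against -0.28 for all measured genes. No calmodulin, calcium-dependent kinase or NADPH oxidase gene was matched by symbol, which says nothing of those families.

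The measured potassium channel genes of the list had ratios close to 1. SOR, an outward-rectifying potassium channel, stood at 62.1 FPKM in the treated and 64.4 FPKM in the control library, 0.963 times the control (0.919 to 1.01). K1.2, an inward potassium channel of the berry, stood at 3.51 FPKM in the treated and 3.61 FPKM in the control library, 0.971 times the control (0.793 to 1.19). SIRK, an inward channel first described in guard cells, was under the limit at 0.144 FPKM in the treated and 0.0526 FPKM in the control library.

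The sodium exchanger SOS1, the classic target of a CBL-CIPK pair in Arabidopsis, stood at 4.80 FPKM in the treated and 5.58 FPKM in the control library, 0.860 times the control (0.739 to 0.9998). TPC1, whose Arabidopsis namesake is a calcium-permeable channel of the vacuole, stood at 19.9 FPKM in the treated and 20.1 FPKM in the control library. The lowest ratios of the list were those of sugar carriers of the vacuole membrane. HT6, with the synonym TMT1, stood at 34.7 FPKM in the treated and 60.8 FPKM in the control library, 0.570 times the control (0.538 to 0.603). TMT2 stood at 6.34 FPKM in the treated and 11.2 FPKM in the control library, 0.567 times the control (0.501 to 0.642). Their kin TMT3 and the transporter NPF3.2 were listed at 0 in the treated library, and in the control library at 0.0177 FPKM and 0.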

How the data were processed

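RNA of wound tissue was sequenced in 2 libraries. The submitters' processing notes list HISAT2 and HTSeq 0.6.1 with no role for either, and the sources used here do not name the genome build. Per the file headers, each deposited transcript table gives the mean coverage signal and the FPKM of 53908 models. The deposited gene table, named FPKM, was treated as a score and used only as an alternative, because its values do not match those of the models. FPKM was summed over the models of a gene name with pandas 2.3.3. Reads were taken as pairs of 150 bases. Fragment equivalents are coverage times length over 300 bases, and intervals are exact binomial (folds) or Poisson (levels) at 95%, for counting error only. For a gene, the fragments are pooled over its models, whatever their lengths. Error in dividing fragments among models is not included. The interval method was tested only on simulated independent counts per gene. That simulation had no division of fragments among models and no variation between libraries, so it says nothing of those errors. The members, lists and exon classes were chosen with earlier results of these data known. Every CBL and CIPK member is named, with each overlapping gene and, of the target list, the 6 measured genes of highest FPKM. The 3 that were not measured were named after their values were seen. Symbols of all 25 members and the chromosome numbers were looked up in a RefSeq table of another assembly, ASM3070453v1, whose coordinates were not used. Positions are those of the files. Intron-rich means a median of at least 5 exons. Alternatives were other pseudocounts, filters, scalings, aligned bases and exon rules, and CBL01 without its opposite-strand model, which was added after seeing the data.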

Additional observations from a re-analysis of the deposited data

How the results depend on the processing

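No paired analysis was possible because the libraries stand alone in their groups, which also leaves no replicate to omit. Rescaling to a median log2 ratio of 0 for all genes moved the median of the CBL sensors to 0.043, of the CIPK kinases to 0.35 and of the target list to 0.16. The target list median was -0.39 for genes with an FPKM of at least 10. The number of members at least 2-fold higher was 4 in the report, 2 with an FPKM of at least 10 (8.33% of all genes), 1 with a pseudocount of 5 (3.88%) and 3 without the opposite-strand model of CBL01 (6.25%). With a pseudocount of 0.1, CBL08 became the 1 lower member (9.6%). CIPK02 was past 2-fold under all 8 settings that gave it a value, with log2 ratios from 1.25 to 1.61. The pseudocount of 5 took CBL01 to 0.80, CIPK11 to 0.78 and CIPK19 to 0.80, all within 2-fold, as was CBL01 without its opposite-strand model, at 0.85. Of the 17 members within 2-fold, 16 stayed so under every setting that gave them a value. After the rescaling CBL02, CBL06, CIPK03, CIPK04, CIPK07 and CIPK09 had log2 ratios above 0, and CIPK018 was below 0 in aligned bases, at -0.08. The difference of median log2 ratio between intron-rich and intron-poor kinases, -0.28, stayed between -0.29 and -0.25. With 1 library per group, every interval covers counting error only, and variation between wounds or libraries was not measured.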

Other observations

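Members that lie close together on a chromosome differed widely in level. This was looked for after the values were seen. CBL06 and CBL07 lie 2194 bases apart on chromosome 4 with no gene between them. In the treated library CBL06 stood at 16.5 FPKM and CBL07 at 0.103 FPKM, with CBL07 on 2.55 fragment equivalents, so no fold is given there. In the control library CBL06 stood 29.3 times above CBL07, which had 14.5 fragment equivalents. CIPK01 and CIPK16 on chromosome 10, 11584 bases apart with no gene between them, differed 36.0-fold in the treated and 39.0-fold in the control library, with CIPK01 the higher. CIPK10 stood 67.7 times above CIPK11 in the treated and 185 times above it in the control library, with 32680 bases and 3 genes between them on chromosome 6. CIPK07 and CIPK08 on chromosome 8, 57948 bases apart, were the closest in level by summed model FPKM, at 1.71-fold in the treated and 2.48-fold in the control library. The deposited gene values gave other contrasts. There CIPK10 stood at 130 and CIPK11 at 38.6 in the treated library, and at 125 and 12.6 in the control library. CIPK07 stood at 58.7 and CIPK08 at 7.28 in the treated library, and at 63.8 and 5.45 in the control library. By those values CIPK07 and CIPK08 lay further apart than CIPK10 and CIPK11. CBL05 and CBL08, 1360 bases apart on chromosome 2, were both near or under the measuring limit.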
